A study of Rattus norvegicus with 9 samples.

Results

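The genes described here are 10 markers of macrophages, Lyz2, Csf1r, Cd14, Fcer1g, Ctss, Mrc1, Tyrobp, C1qa, C1qb and Cd68, chosen by symbol. Each was matched by 1 probe set, so the members are 10 of the 14217 genes named on the array and 10 of its 31099 probe sets. Signals were compared between 3 tissues of Sprague-Dawley rat embryos at embryonic day 13, with 3 arrays each and no growth in culture. The ureteric bud (UB) is the epithelial outgrowth that branches into the collecting ducts of the kidney, and it was freed from the embryonic kidney by light trypsin digestion. The Wolffian duct with attached mesodermal cells (WD+IM) and the bare Wolffian duct (WD), the tube from which the bud grows, were isolated without treatment. For an array, roughly 100 UBs, 50 ducts with mesoderm or 100 bare ducts were pooled. Digestion and tissue cannot be told apart.

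Macrophages are phagocytes that enter embryonic organs early, mostly from the yolk sac and the fetal liver, and settle in the mesenchyme around epithelial tubes, where they clear dying cells and debris. They depend on the receptor Csf1r and its ligands Csf1 and Il34. They carry scavenger and pattern receptors, signal through adapter proteins with immune tyrosine motifs, and are rich in lysosomal enzymes and in the complement protein C1q.

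The median probe set had 534 to 897 intensity units, depending on the array, and with 3 arrays a tissue precision is limited by their number. The tissues carried their defining markers. The summed signal of 12 duct and bud epithelial genes was 239200 to 258600 in the UB, 63880 to 97790 in WD+IM and 219700 to 237900 in the WD. That of 10 mesenchymal genes was 8519 to 12090 in the UB, 213800 to 256100 in WD+IM and 99390 to 133800 in the WD, so the bare duct pools also gave mesenchymal signal. A pair of technical measures differed between arrays. Of the spiked controls, bioC was 2.94 to 3.03 times as bright as bioB in the UB and 2.97 times on WD+IM replicate 3, but 0.915 to 1.08 times on the other 5 arrays. For beta-actin, the 3' over 5' ratio, which grows as RNA degrades, was 1.48 to 2.30 in the UB, 1.47 to 1.92 in WD+IM and 2.19 to 4.87 in the WD.

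The macrophage genes were low in the UB, and 8 of the 10 had their highest mean in WD+IM, then the WD, then the UB. Csf1r had its highest mean in the WD, and Cd68 alone had it in the UB. All signals were modest: 7 of the 10 genes (Lyz2, Cd14, Ctss, Mrc1, Tyrobp, C1qa and C1qb) lay above the array's 40th percentile, 270 to 329 units in the UB, on 0 of the 3 UB arrays. The 27 probe sets for Bacillus subtilis control transcripts had a median of 17.8 to 68.0 units and a highest signal of 101 to 583 per array. Below the highest control of the same array lay 3 to 7 of the 10 members on the UB arrays, 0 to 4 on the WD+IM arrays and 4 to 5 on the WD arrays. On WD+IM replicate 2 these were C1qa, Cd68, Mrc1 and Tyrobp. Below the control median lay 0 to 2 members per array, among them Mrc1 on UB replicates 2 and 3 and WD replicate 3. In a bulk pool, fewer cells of a type and less RNA per cell cannot be told apart.

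Among the lysosomal members, Lyz2 and Ctss were low in the UB and Cd68 was not. Lyz2 is lysozyme, which cuts bacterial cell walls. Its signal was 116, 215 and 206 in the UB, 1416, 2130 and 1627 in WD+IM and 663, 735 and 1276 in the WD. The tissues did not overlap, with every UB array below every other array. The UB was lower than the WD by a log2 difference of -2.03 ± 0.33 (SE, adjusted p = 9.08e-04) and lower than WD+IM by -2.99 ± 0.33 (adjusted p = 2.88e-05). WD+IM exceeded the WD by 0.95 ± 0.33, which did not pass (adjusted p = 0.0815) but did without WD replicate 3, the brightest WD array (1.23 ± 0.34, adjusted p = 0.0359).

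Ctss, a lysosomal cysteine protease used in antigen processing, had a signal of 203, 163 and 86.8 in the UB, 978, 939 and 592 in WD+IM and 281, 374 and 832 in the WD. All UB arrays were lowest, while WD replicate 3 reached into the WD+IM range. The UB fell below the WD by -1.38 ± 0.45 (adjusted p = 0.0368). This call was narrow and was lost without each of UB replicates 1, 2 and 3 and WD replicates 2 and 3, at adjusted p-values of 0.0549, 0.0635, 0.119, 0.0591 and 0.128. Against WD+IM the UB was lower by -2.18 ± 0.45 (adjusted p = 0.00329). WD+IM minus WD was 0.80 ± 0.45 (adjusted p = 0.268), with a 95% interval from -0.17 to 1.78.

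Cd68, a glycoprotein of late endosomes and lysosomes, ran the other way. It had a signal of 627, 896 and 694 in the UB, 466, 450 and 482 in WD+IM and 571, 539 and 757 in the WD. The WD+IM arrays were the lowest, and the UB and the WD overlapped. The UB exceeded WD+IM by 0.60 ± 0.28, which did not pass (adjusted p = 0.143). UB minus WD was 0.23 ± 0.28 (adjusted p = 0.559), with a 95% interval from -0.38 to 0.84, and WD+IM minus WD was -0.37 ± 0.28 (adjusted p = 0.416), with an interval from -0.98 to 0.24. The difference between UB and WD+IM passed after quantile normalization (0.94 ± 0.29, adjusted p = 0.0334) and after median centring (0.97 ± 0.31, adjusted p = 0.0253).

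The promoters of these 3 genes are shown because Lyz2 and Ctss moved together across the tissues and Cd68 did not. Macrophage promoters are known to be read by PU.1, an ETS family factor that binds purine-rich DNA around the letters GAGGAA and GGAAGT. The sequences are the 250 bases before each gene's start, 5′ to 3′ on the gene's strand, from RefSeq on GRCr8: chr7:54798012-54798261 on the minus strand for Lyz2, chr2:185775146-185775395 on the plus strand for Ctss and chr10:54882442-54882691 on the minus strand for Cd68. Capitals mark GAGGAA and GGAAGT or their reverse complements TTCCTC and ACTTCC.
Lyz2: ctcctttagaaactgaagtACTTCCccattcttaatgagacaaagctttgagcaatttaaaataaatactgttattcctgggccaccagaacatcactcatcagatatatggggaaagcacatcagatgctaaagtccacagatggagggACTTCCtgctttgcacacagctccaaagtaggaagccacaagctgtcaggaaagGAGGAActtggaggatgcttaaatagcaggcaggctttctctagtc
Ctss: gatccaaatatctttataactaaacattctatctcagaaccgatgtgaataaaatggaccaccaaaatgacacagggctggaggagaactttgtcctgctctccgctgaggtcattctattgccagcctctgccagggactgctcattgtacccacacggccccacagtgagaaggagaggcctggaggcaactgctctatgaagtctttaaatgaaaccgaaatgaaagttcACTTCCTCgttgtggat
Cd68: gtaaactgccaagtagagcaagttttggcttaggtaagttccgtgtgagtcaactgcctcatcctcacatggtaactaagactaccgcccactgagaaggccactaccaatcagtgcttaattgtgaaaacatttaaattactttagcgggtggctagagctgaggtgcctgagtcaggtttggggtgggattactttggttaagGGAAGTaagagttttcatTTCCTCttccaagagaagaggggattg
Of the 10 members, 8 had a promoter sequence in the table. GAGGAA stood on either strand in 7 of these 8 and in 23.3% of all 33469 promoter windows of that length, and GGAAGT in 6 of 8 and in 19.2% of all. The pair can overlap as GAGGAAGT, which 1 of the 8 (Ctss, on the reverse strand, from base -17) and 2.0% of all windows held. Lyz2 has GAGGAA from base -46. Cd68, whose signals did not follow those of Lyz2 and Ctss, holds both motifs too, GGAAGT from base -45 and GAGGAA in reverse from base -27. These matches describe letters and not binding.

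Csf1r, the receptor kinase on which macrophages depend, had a signal of 157, 241 and 400 in the UB, 956, 928 and 707 in WD+IM and 850, 918 and 1218 in the WD. The UB arrays were below all others, and WD+IM and WD overlapped. The UB was lower than the WD by -1.80 ± 0.34 (adjusted p = 0.00219) and lower than WD+IM by -1.61 ± 0.34 (adjusted p = 0.00364). WD+IM minus WD was -0.19 ± 0.34 (adjusted p = 0.761), with a 95% interval from -0.92 to 0.54.

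**Figure D1:**
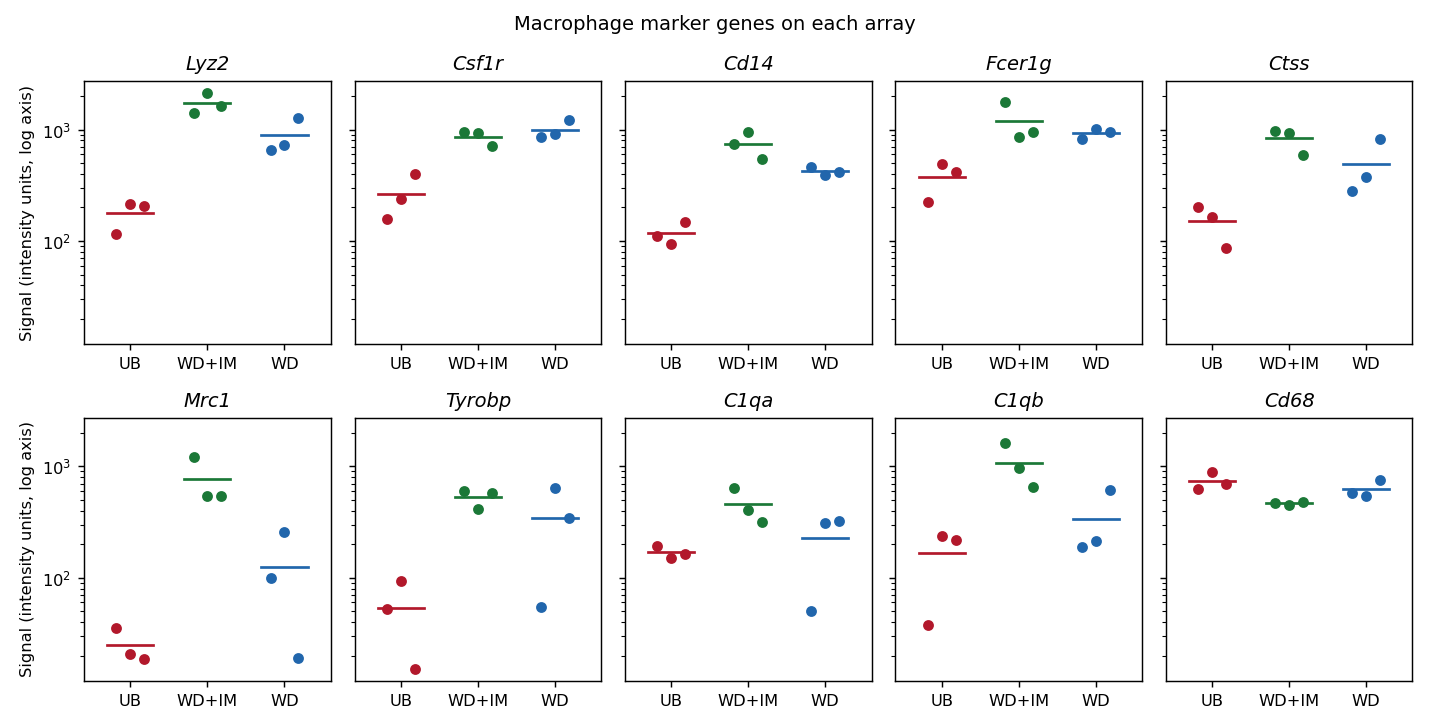
Signal of the 10 macrophage marker genes in intensity units on a log axis, with 1 point per array, replicates 1 to 3 from left to right in each tissue, and a line at the mean of the 3 arrays. The UB points lie below all WD+IM points for each gene but Cd68, and Mrc1, Tyrobp and C1qa spread widely in the WD.

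The receptors for microbial and sugar ligands differed in pattern. Cd14, which binds bacterial lipopolysaccharide, had a signal of 111, 94.4 and 149 in the UB, 746, 955 and 541 in WD+IM and 466, 387 and 417 in the WD, with no overlap between any of the tissues. The UB was lower than the WD by -1.53 ± 0.37 (adjusted p = 0.0101) and lower than WD+IM by -2.25 ± 0.37 (adjusted p = 7.13e-04). Cd14 lay above the filter level on 0 UB arrays and 0 WD arrays. It was below the highest Bacillus subtilis control on every UB array and on WD replicates 2 and 3. In a fit that also held the beta-actin ratio, the difference between UB and WD was -1.61 ± 0.53 and the call was lost (adjusted p = 0.058). Quantile normalization lost this call too (-0.79 ± 0.36, adjusted p = 0.132), and median centring kept it (-1.07 ± 0.40, adjusted p = 0.047). WD+IM minus WD, at 0.73 ± 0.37, did not pass (adjusted p = 0.23).

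Mrc1, the mannose receptor of tissue macrophages and of some sinusoidal and lymphatic endothelia, was the member with the largest difference between WD+IM and WD. Its signal was 35.4, 20.6 and 18.7 in the UB, 1211, 540 and 545 in WD+IM and 100, 255 and 19.1 in the WD. WD+IM stood above all other arrays, and the WD spread from the UB level upwards. WD+IM was higher than the WD by 2.42 ± 0.68 (adjusted p = 0.0361), and the UB was lower than WD+IM by -3.43 ± 0.68 (adjusted p = 0.00254). UB minus WD was -1.01 ± 0.68 (adjusted p = 0.277). All UB arrays and WD replicate 3 lay below the pseudocount of 46, so the size of these differences depends on it. The call against the WD was lost with a pseudocount of 16 (2.81 ± 0.91, adjusted p = 0.0642) and without WD replicate 1, WD replicate 3 or any of the WD+IM replicates (adjusted p from 0.0692 to 0.128).

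The adapters that pass receptor signals to kinases were low in the UB. Fcer1g, the common gamma chain of Fc receptors, had a signal of 223, 491 and 414 in the UB, 1775, 864 and 959 in WD+IM and 816, 1021 and 946 in the WD. The UB did not overlap the others, and WD+IM replicate 1 stood high while its other replicates lay in the WD range. The UB was lower than the WD by -1.26 ± 0.34 (adjusted p = 0.017) and lower than WD+IM by -1.55 ± 0.34 (adjusted p = 0.00534). The call against the WD was lost without UB replicate 1 (-0.96 ± 0.35, adjusted p = 0.0772) and without WD replicate 2 (-1.19 ± 0.40, adjusted p = 0.0555). WD+IM minus WD was 0.29 ± 0.34 (adjusted p = 0.626), with a 95% interval from -0.46 to 1.04.

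Tyrobp, the adapter of Trem2 and other activating receptors of myeloid and natural killer cells, had a signal of 52.6, 94.2 and 15.2 in the UB, 597, 415 and 576 in WD+IM and 54.6, 641 and 344 in the WD. WD replicate 1 was at the UB level and the other WD arrays at the WD+IM level. The UB was lower than WD+IM by -2.59 ± 0.69 (adjusted p = 0.0149), a call lost without UB replicate 3 (-2.27 ± 0.75, adjusted p = 0.0515). UB minus WD, at -1.67 ± 0.69, did not pass (adjusted p = 0.085) but did without WD replicate 1 (-2.45 ± 0.56, adjusted p = 0.0108). That WD array had the highest beta-actin 3' to 5' ratio, 4.87.

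The C1q chains, which together start the classical complement pathway, did not pass in UB against WD. C1qb had a signal of 37.7, 239 and 218 in the UB, 1604, 967 and 655 in WD+IM and 191, 212 and 617 in the WD. WD+IM lay above the other arrays, and UB and WD overlapped. The UB was lower than WD+IM by -2.51 ± 0.58 (adjusted p = 0.00668). UB minus WD was -0.89 ± 0.58 (adjusted p = 0.26), and WD+IM minus WD was 1.62 ± 0.58 (adjusted p = 0.0894), which passed without WD replicate 3 (2.09 ± 0.59, adjusted p = 0.0401). C1qa had a signal of 193, 149 and 164 in the UB, 643, 403 and 317 in WD+IM and 49.9, 309 and 322 in the WD. It was above the 40th percentile on 1 array, WD+IM replicate 1, and was not tested with the filter. In a fit without the filter C1qa differed by -1.17 ± 0.55 between UB and WD+IM (adjusted p = 0.186), by 1.06 ± 0.55 between WD+IM and WD (adjusted p = 0.294) and by -0.12 ± 0.55 between UB and WD (adjusted p = 0.897).

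**Figure D2:**
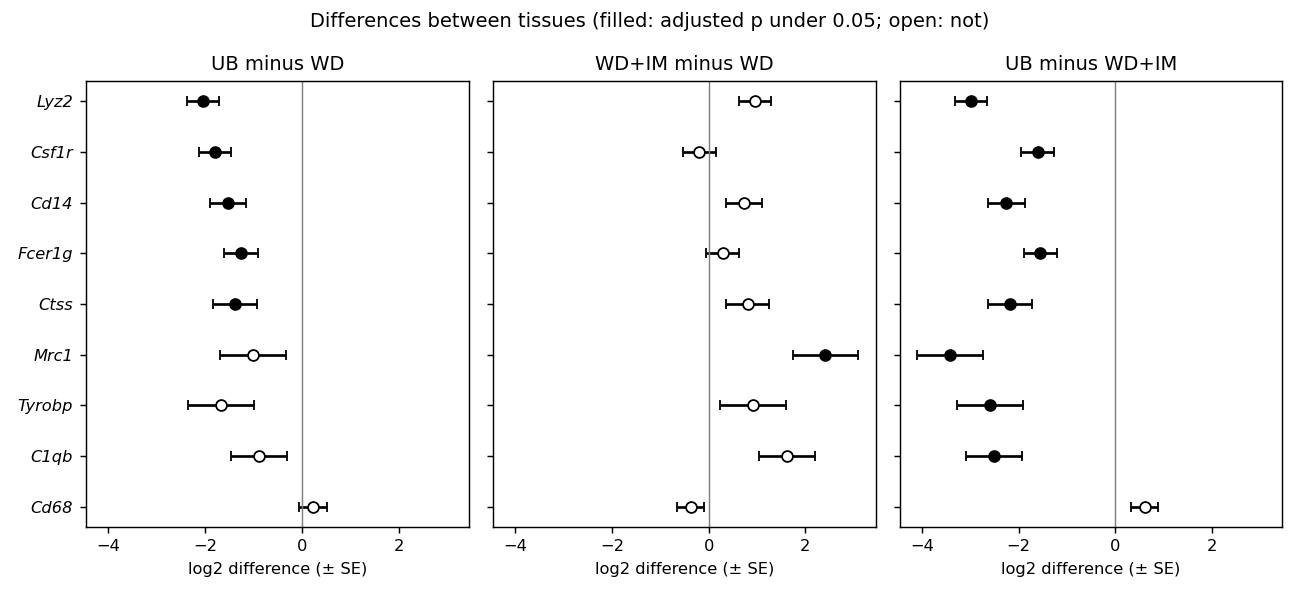
Log2 differences, the first-named tissue minus the second, with their SE for the 9 members tested (C1qa was below the filter). Filled points had an adjusted p under 0.05. In UB minus WD+IM all members but Cd68 lie left of 0, and in WD+IM minus WD only Mrc1 is filled.

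Of the 10 members, 9 passed the filter on low signal. Cd14 and Mrc1 passed through the 3 WD+IM arrays alone, and Ctss, C1qb and Tyrobp through WD+IM and 1 WD array, so the counts that follow are a description. Between UB and WD, 5 of the 9 were lower in the UB (Lyz2, Csf1r, Cd14, Fcer1g and Ctss) and the other 4 were not called. Of all probe sets tested, 29.9% were called in this comparison and 18.6% were lower in the UB. The median difference was -1.38 over the 9 members and -0.12 over all probe sets tested. Without the filter these medians were -1.32 and -0.30. Weak probe sets as a whole read lower in the UB, where the array's 40th percentile was 270 to 329 units. It was 331 to 536 in WD+IM and 469 to 569 in the WD. The members were not compared with probe sets of like intensity. Between WD+IM and WD, 1 of the 9 was higher (Mrc1) and the other 8 were not called, against 12.7% of all probe sets called and 5.62% higher. A further 7.06% of all were lower. The medians were 0.80 and -0.04. Between UB and WD+IM, 8 of the 9 were lower in the UB and Cd68 was not called, against 25.5% of all called and 14.5% lower. The medians were -2.25 and -0.05. In the fit without a filter, which takes in all 10 members and 31042 probe sets, 4 members were lower in UB against WD (Lyz2, Csf1r, Cd14 and Fcer1g), with 19.3% of all called. There, 1 was higher in WD+IM against WD (Mrc1), with 7.39% called, and 8 were lower in UB against WD+IM, with 16.1% called. The 3 comparisons share arrays.

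Counted over all 10 members by whether the arrays overlapped, 5 lay wholly lower in the UB than the WD and 0 wholly higher, where 47.8% of the tested probe sets did not overlap (29.5% lower and 18.3% higher). In WD+IM, 4 lay wholly above the WD (Lyz2, Cd14, Mrc1 and C1qb) and Cd68 wholly below, against 29.6% of all without overlap (13.5% above and 16% below). In the UB, 9 lay wholly below WD+IM and Cd68 wholly above, against 42.6% of all (22.6% below and 20% above). C1qa, which was not tested, is among these 9, while the shares are over tested probe sets alone.

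These counts moved with the scaling between arrays. With quantile normalization 2 members were called lower in UB against WD (Lyz2 and Csf1r), and with median centring 3 (the same genes and Cd14), while the medians of all differences became 0.04 and 0.34 and those of the members -0.73 and -0.92. All calls in that comparison were 2297 higher and 3776 lower as deposited, 2510 and 2435 with quantile normalization, and 5843 and 1530 with median centring. In the fit that also held the beta-actin ratio, 4 members were called lower in UB against WD (Lyz2, Csf1r, Fcer1g and Ctss), where 16.1% of all probe sets were called. In UB against WD+IM quantile normalization and median centring each kept the 8 lower calls and added Cd68 as higher, with members' medians of -1.73 and -1.89.

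The 3 UB arrays and WD+IM replicate 3 stand apart in the bioC to bioB ratio. A term that marks arrays with a ratio above 2 thus rests on that single WD+IM array. With the term, 0 of the 9 members were called in UB against WD by limma (2 at an unadjusted p under 0.05), where 3.93% of all probe sets were called. All 8 negative differences stayed below 0, from -1.94 ± 0.62 for Lyz2 (adjusted p = 0.121) to -0.01 ± 1.04 for C1qb (adjusted p = 0.998). For Csf1r the difference was -1.41 ± 0.61 (adjusted p = 0.249), for Cd14 -0.92 ± 0.65 (adjusted p = 0.493), for Fcer1g -0.90 ± 0.63 (adjusted p = 0.491) and for Ctss -0.72 ± 0.80 (adjusted p = 0.685). In UB against WD+IM the term left Lyz2 (-2.93 ± 0.48, adjusted p = 0.00208) and Cd14 (-1.85 ± 0.51, adjusted p = 0.0369) as calls, while 11.9% of all probe sets were called. With it Mrc1 stood at 2.59 ± 0.76 in WD+IM against WD (adjusted p = 0.0577).

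**Figure D3:**
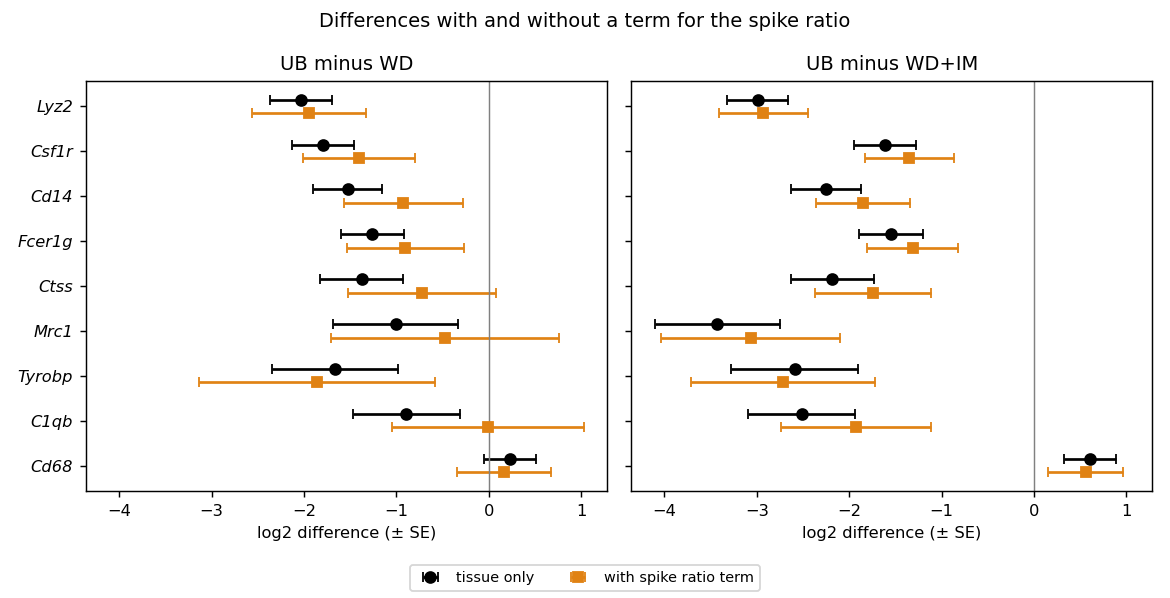
Log2 differences with their SE for the 9 members tested. Circles show the fit with tissue only. Squares show the fit with a further term that marks the arrays with a bioC to bioB ratio above 2. The errors grow with the term, and C1qb in UB minus WD moves from -0.89 to -0.01.

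Arrays of 1 tissue also differed in the level of the macrophage genes as a set. WD+IM replicate 1 was the highest of its tissue for 7 of the 10 genes, and WD+IM replicate 3 the lowest for 5. WD replicate 3 was the highest WD array for 6 genes and WD replicate 1 the lowest for 7. The median of all probe sets followed part of this order. It was 897, 744 and 644 units on WD+IM replicates 1 to 3, and 793, 779 and 862 on WD replicates 1 to 3. How often other probe sets had the same order was not counted. Among the WD arrays, replicate 3 had the lowest beta-actin ratio (2.19) and replicate 1 the highest (4.87). The parts of RNA integrity and of the level of the whole array in the order of the macrophage genes were not tested. Over the 9 arrays, the Pearson correlation of each tested member with the mean standardised profile of the other 8 was 0.70 for Mrc1 to 0.96 for Lyz2, and -0.70 for Cd68. These correlations share the tissue means and the array scaling.

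A wider list held 38 other macrophage genes. Of these, 32 had a probe set with 1 symbol, of which 17 were tested and 15 were below the filter. Spi1, which encodes PU.1, was among the 6 not matched. Ptprc, the pan-leukocyte phosphatase, had a signal of 48.5 to 137 in the UB, 194 to 302 in WD+IM and 32.3 to 397 in the WD. Adgre1, the F4/80 antigen in the mouse, had 7.41 to 71.0 in the UB, 97.1 to 269 in WD+IM and 63.7 to 190 in the WD. Cx3cr1, the fractalkine receptor, had 36.4 to 143 in the UB, 194 to 450 in WD+IM and 186 to 453 in the WD. Each of these 3 genes was below the 40th percentile on all 9 arrays. Itgam, an integrin chain of myeloid cells, reached 83.8 at most. Genes below the filter did not all lean the same way between the duct tissues. Trem2 had 18.4 to 27.3 in the UB, 20.1 to 83.3 in WD+IM and 91.8 to 228 in the WD. Cybb had 20.8 to 122 in the UB, 89.0 to 433 in WD+IM and 251 to 578 in the WD. Cd53 had 54.4 to 139 in the UB, 209 to 456 in WD+IM and 41.3 to 204 in the WD.

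Of the 17 genes of the wider list that were tested, 2 were lower (Lyve1 and Cd74) and 1 higher (Coro1a) in UB against WD, with a median of -0.56. Of all probe sets tested, 29.9% were called there, 18.6% lower and 11.3% higher. In WD+IM against WD 3 were higher (Lyve1, Stab1 and Coro1a) and 0 lower, with a median of 0.27. Of all probe sets tested, 12.7% were called there, 5.62% higher. The largest differences the other way were those of Cd74 (-1.17 ± 0.38, adjusted p = 0.0635) and Aif1 (-1.41 ± 0.58, adjusted p = 0.136). Neither was called. In UB against WD+IM 6 were lower (Lyve1, Stab1, C1qc, Lcp1, Laptm5 and Hmox1) and Coro1a was higher, with a median of -0.61. Of all, 25.5% were called in that comparison, 14.5% lower. The counts of this list are a description too, since a gene could pass the filter through WD+IM alone. Lyve1, a hyaluronan receptor of lymphatic endothelium and of a class of tissue macrophages, was lower in the UB than in WD+IM by -4.62 ± 0.32 and higher in WD+IM than in the WD by 2.43 ± 0.32. Stab1, a scavenger receptor of sinusoidal endothelium and macrophages, had 233 ± 35.3 in the UB, 1712 ± 219 in WD+IM and 521 ± 263 in the WD (SD, n = 3 each). Lyve1 and Stab1 are thus shared with endothelium. C1qc, the remaining C1q chain, followed C1qb, lower in the UB than in WD+IM by -2.72 ± 0.59 (adjusted p = 0.00449), with 1.80 ± 0.59 between WD+IM and WD (adjusted p = 0.0654). Coro1a, an actin regulator of leukocytes, was highest in the UB, at 3048 ± 172, against 1095 ± 103 in WD+IM and 474 ± 260 in the WD.

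The ligands of macrophage receptors were described as a further list. Csf1, a ligand of Csf1r, had 2960 ± 955 in the UB, 2240 ± 455 in WD+IM and 3256 ± 332 in the WD and was called in none of the 3 comparisons (adjusted p from 0.144 to 0.588). Il34, the other ligand of Csf1r, was lower in UB against WD, by -1.63 ± 0.56 (adjusted p = 0.0464), and its difference was not called in WD+IM against WD (-0.92 ± 0.56, adjusted p = 0.313). Of 8 ligands and attractants tested, 4 were lower (Gas6, Tgfb1, Pros1 and Il34) and 1 higher (Cxcl12) in UB against WD. In WD+IM against WD 3 were higher (Cxcl12, Pros1 and Tgfb1), and in UB against WD+IM 5 were lower (Cxcl12, Pros1, Tgfb1, Gas6 and Ccl3). Over all probe sets tested, 29.9%, 12.7% and 25.5% were called in these comparisons, in that order. Gas6 and Pros1, which bridge dying cells to receptors such as Mertk, were lower in the UB than in WD+IM by -2.08 ± 0.22 and -2.39 ± 0.19. Mertk itself did not pass in any comparison (adjusted p from 0.485 to 0.841).

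Lysosomal genes are expressed by all cells. Of 17 tested, none of them a member, 12 were lower and 1 higher (Ctsh) in UB against WD, with a median of -0.52. In UB against WD+IM 10 were lower and 2 higher (Ctsh and Ctsc), with a median of -0.54, and in WD+IM against WD 2 were lower (Ctsc and Ctsf) and 1 higher (Ctsk), with a median of -0.05. Over all probe sets tested, 29.9% were called in UB against WD, 25.5% in UB against WD+IM and 12.7% in WD+IM against WD. Ctsk, a collagen-degrading cathepsin, had 121 ± 55.4 in the UB, 2372 ± 782 in WD+IM and 744 ± 325 in the WD. Ctsh, an aminopeptidase of the same family, had 27343 ± 3149 in the UB, 8622 ± 1771 in WD+IM and 12183 ± 889 in the WD. Of 5 complement genes tested, 3 were lower in UB against WD (C1r, C1s and Cd59b) and 4 in UB against WD+IM (these and C1qc). None of the 5 was called in WD+IM against WD by limma, and 1 had an unadjusted p under 0.05. C1s and C1r, the proteases that C1q activates, were lower in UB against WD, by -3.14 ± 0.44 and -2.38 ± 0.32.

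Markers of some other cell types also differed between the tissues, each in its own way. The summed signal of the 10 macrophage genes was 1755 to 2603 in the UB, 7002 to 10390 in WD+IM and 4042 to 6748 in the WD, with no overlap. That of 14 red cell genes was 11990 to 39990 in the UB, 219500 to 318100 in WD+IM and 233100 to 359800 in the WD, so the duct tissues overlapped. Of 11 red cell genes tested, 9 were lower in UB against WD and 9 in UB against WD+IM, and 0 were called in WD+IM against WD by limma (0 at an unadjusted p under 0.05). Over all probe sets tested, 29.9%, 25.5% and 12.7% were called in these comparisons, in that order. The summed signal of 13 endothelial genes was 4439 to 5971 in the UB, 49880 to 51140 in WD+IM and 6201 to 7601 in the WD. Of the 13 tested, 11 were higher in WD+IM against WD, and all 13 were lower in UB against WD+IM. Sox17, with means of 86.2 in the UB, 76.9 in the WD and 1226 in WD+IM, passed the filter through WD+IM alone. These counts are thus a description. In UB against WD 5 were lower and 1 higher (Cldn5), with a median of -0.91. Of the 10 mesenchymal genes, 6 were higher in WD+IM against WD and all 10 were lower in the UB than in either duct tissue. The summed signals of the mesenchymal and the endothelial genes, like that of the macrophage genes, fell from WD+IM to the WD to the UB without overlap. The part of blood, vessel and mesenchymal content in the macrophage gene differences was not tested.

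**Figure D4:**
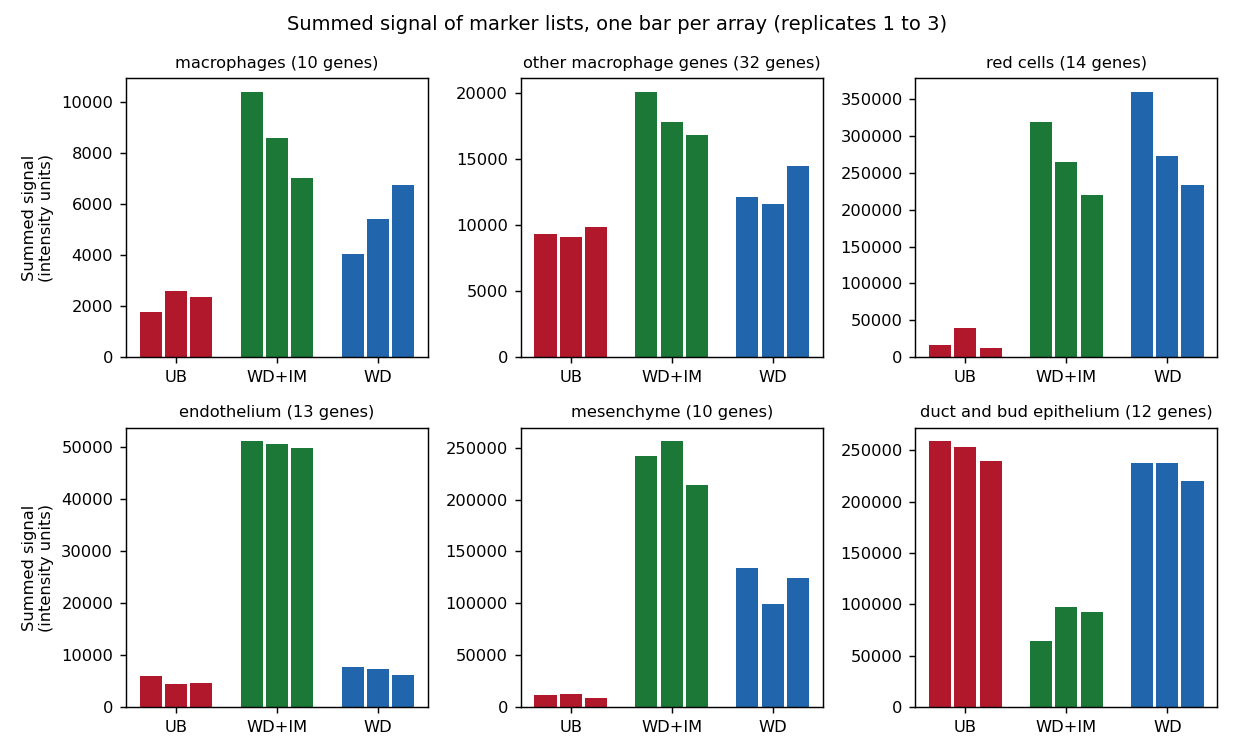
Summed signal of 6 marker lists in intensity units, 1 bar per array, replicates 1 to 3 from left to right in each tissue. Macrophage and mesenchymal genes both step down from WD+IM to the WD to the UB. Endothelial genes have the same order, with the WD only slightly above the UB. Red cell genes are high in both duct tissues.

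Most genes of the other blood cell lists were too weak to test. All 4 neutrophil genes with a probe set were below the filter, as were 6 of 8 mast cell and basophil genes, 4 of 6 megakaryocyte genes and 5 of 6 lymphocyte genes. The summed signal of the megakaryocyte genes was 946 to 2072 in the UB, 3228 to 4326 in WD+IM and 1910 to 3635 in the WD, and that of the mast cell and basophil genes was 1764 to 3132 in the UB, 1296 to 2398 in WD+IM and 1452 to 1817 in the WD. Pf4, a chemokine of megakaryocytes that embryonic macrophages also make in the mouse, was lower in the UB (488 ± 484) than in WD+IM (2192 ± 120) by -2.44 ± 0.49 (adjusted p = 0.00273), and its WD level was 855 ± 278. Kit, the stem cell factor receptor of mast cells and progenitors, was brighter in the UB (1377 ± 669) than in the WD (213 ± 199), by 2.63 ± 0.57 (adjusted p = 0.00527). Tpsb2, a mast cell tryptase, was not called in any comparison (adjusted p from 0.122 to 0.658), nor was Itga2b, the megakaryocyte integrin chain (0.324 to 0.971), nor the lymphocyte kinase Lck (0.919 to 0.977).

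Among the 10800 other genes tested, the 8 whose 9 log2 values were most like the mean standardised profile of the members were Nrp2 (Pearson's r = 0.99), Tes, Hbp1 and Fap (0.98 each) and S1pr3, Slc40a1, Rnf157 and Rnf213 (0.97 each). The points share arrays and tissue means, and the likeness is a description. Slc40a1, the iron exporter ferroportin, had mean signals of 443 in the UB, 1594 in WD+IM and 1093 in the WD, and was lower in UB against WD by -1.22 (adjusted p = 0.0025). Nrp2, a receptor for semaphorins and vascular growth factors, had 151 in the UB, 903 in WD+IM and 478 in the WD. Fap, a surface protease of fibroblasts, had 219 in the UB, 993 in WD+IM and 625 in the WD. None of the 10800 was one of the members.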

How the data were processed

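RNA of pooled tissue pieces, labelled with biotin, was read on 9 Affymetrix arrays of a single colour, per the labels' protocols. The authors deposited 1 linear signal intensity per probe set and array. They used the Affymetrix program GCOS, per the submitters' processing notes; its version and settings are not given in the sources used. From the values, all arrays share a mean of 2500 without the outer 2% at each end, so each difference is relative to the other genes of its array. No detection calls were used.

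Gene names came from the platform annotation. All 10 member probe sets matched the GRCr8 gene table by Entrez ID. Of 31099 probe sets, 57 were controls, 20826 had 1 symbol, 436 several and 9780 none. Each intensity was taken as log2(intensity + 46), where 46 is the 10th percentile over the whole table; this understates changes of weak genes. Testing required a signal above the array's 40th percentile on 3 or more of the 9 arrays. A gene of any list could thus pass through a single bright tissue, which favours a call toward that tissue. Linear models in limma 3.58.1 (R 4.3.3), with tissue as the only term and a mean-variance trend, used every array (6 residual and 6.08 prior degrees of freedom). P-values were adjusted by Benjamini-Hochberg over the 20330 probe sets tested, and an adjusted p under 0.05 was a call. Every adjusted p is from limma. Arrays of a tissue are biological replicates per the labels, so p-values reflect how much such pools vary. No 2 arrays held identical values. A gene of another list was shown by its brightest tested probe set.

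The members and lists were chosen with earlier results of these data known. Named were all members, from the other lists up to 4 genes with the smallest p or a change against the list, and the 8 genes most like the members. A few others were named after their values were seen: genes below the filter, Csf1, Il34, and list members needed to complete a count. Alternatives were other scalings, pseudocounts, filters, covariates, sample sets, array weights and leaving out each array. The fit within arrays of like spike ratio was added after the data were seen. A change of sign was counted as a reversal only where a call was involved. The tests were tried on simulated data first. There, 100 of the 20330 probe sets were changed at each size. UB against WD recovered 34% of the changes of log2 size 1 and 81% of those of size 2. Of the 124 calls, 7.26% were false. The data gave 6073 calls in that comparison, so the adjusted threshold was stricter in the simulation and its rates need not hold here. A member that was not called may still differ.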

Additional observations from a re-analysis of the deposited data

How the results depend on the processing

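No called member turned its sign under any of the alternatives run. The number of members called in UB against WD, 5, became 2 after quantile normalization, 3 after centring on the median and 0 once a high spike ratio was a term, and ran from 3 (without UB replicate 1 or WD replicate 2) to 6 (without WD replicate 1) when single arrays were left out. The share of all probe sets called there moved too, from 29.9% to 24.3%, 36.3% and 3.93% under the first 3 of these alternatives. It was 26.3% with the replicate block, 18.4% without UB replicate 1 and 23.7% without WD replicate 1. A change in the number of members called thus cannot be read without that share. The number in WD+IM against WD, 1, became 2 with quantile normalization, median centring, a pseudocount of 200 or the mean of a gene's probe sets, and 0 with a pseudocount of 16, the replicate block, the spike ratio term, the beta-actin covariate or within arrays of like spike ratio. At an unadjusted p under 0.05 limma then had 3, 3, 4, 1 and 4 members. It ran from 0 to 2 when single arrays were left out: 0 without WD replicate 1 or any WD+IM replicate, and 2 without WD replicate 3. The number in UB against WD+IM, 8, became 2 with the spike ratio term and within arrays of like spike ratio, where 3 UB arrays face 1 WD+IM array that is assumed to vary like the UB, and ran from 7 to 8 over single arrays left out. The causes were not tested. The stricter filter left no member to test. With the replicate number as a block 4, 0 and 8 members were called. The numbers did not pair the arrays (r of same-numbered deviations from -0.35 to 0.28). Without detection calls, a weak signal cannot be told from background.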
